A study of Mus musculus with 6 samples.

Results

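The genes described here are Trp53, the gene of the transcription factor p53, and 9 genes of its stress and growth arrest response, namely Cdkn1a, Gadd45a, Gadd45b, Gadd45g, Mdm2, Ccng1, Btg2, Plk2 and Phlda3. They were chosen by gene symbol, with earlier results of these data known. All 10 were found among the 35485 genes in the tables of each sample. Their transcripts were measured by RNA-seq in whole retinas of wild type C57BL/6 male mice aged 12 weeks, taken 2 days after surgery. In the optic nerve crush (ONC) group, labelled NC by the submitters, the nerve was crushed for 10 seconds at 2 mm from the globe, and in the sham group it was exposed and left uncrushed. Each group had 3 samples, and each sample was RNA pooled in fixed amounts from 6 retinas of 6 mice, so that the spread between samples is one between pools (numbered 1 to 3 here) and not between single animals. All 6 libraries shared 1 sequencing lane.

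p53 is a transcription factor that is held at a low level by Mdm2, a ubiquitin ligase whose own gene p53 activates, and that is released from this control after DNA damage and other stress. Among its targets, Cdkn1a encodes p21, an inhibitor of cyclin-dependent kinases that arrests the cell cycle and also acts in postmitotic neurons. The Gadd45 proteins bind stress-activated kinases and take part in DNA repair and DNA demethylation, Ccng1 encodes cyclin G1, Btg2 an antiproliferative protein, Plk2 a kinase that acts at synapses, and Phlda3 an inhibitor of Akt signalling. The retinal ganglion cells (RGCs), whose axons form the optic nerve, are a small minority of the retina, and p53 signalling has long been studied in the death of neurons. Some of these genes, such as Cdkn1a and Gadd45a, are known to respond to other stress factors too, ATF4 among them.

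At 2 days after ONC, Cdkn1a was the member with the largest change, at 3.69-fold its sham level. Gadd45a and Btg2 rose less, by 1.28-fold and 1.24-fold. For the other 7 members, Trp53 and Mdm2 among them, no difference passed the test. By edgeR's quasi-likelihood test, 3 of the 10 genes were higher in ONC at an adjusted p under 0.1 (false discovery rate, FDR), where 2.38% of the 13670 genes tested were. None of the 10 genes was lower at that threshold, where 3.72% of all genes were. With a fold change above 1.5 required as well, which defines a differentially expressed gene (DEG) here, 1 of the 10 remained, Cdkn1a, against 0.827% of all genes. The median log2 fold change was 0.159 over the 10 genes and 0.00995 over all genes tested. The 10 genes were chosen with earlier results of these data known, in which the rise of Cdkn1a was reported. Their counts and median beside those of all genes are thus a description and no independent support. The values are from whole retina, in which fewer cells of a type and less RNA per cell cannot be told apart.

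The stretches of genome just before the start sites of the 3 genes that rose are shown because the results turn on these genes and because their start sites carry different motifs. They were taken from RefSeq on GRCm38.p6, which matched all 10 genes by symbol. Each runs 5′ to 3′ in the direction of transcription and ends at the base before the start site, and capitals mark the motifs searched for. Cdkn1a has 2 annotated start sites, with upstream stretches at chr17:29090729-29090978 and chr17:29093519-29093768 on the plus strand. Those of Gadd45a and Btg2 are at chr6:67037408-67037657 and chr1:134079156-134079405 on the minus strand.
Cdkn1a, upstream start site: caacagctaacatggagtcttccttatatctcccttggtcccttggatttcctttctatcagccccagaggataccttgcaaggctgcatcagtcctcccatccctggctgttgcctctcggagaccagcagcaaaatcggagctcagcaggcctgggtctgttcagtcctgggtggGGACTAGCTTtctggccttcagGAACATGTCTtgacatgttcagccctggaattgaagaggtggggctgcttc
Cdkn1a, downstream start site: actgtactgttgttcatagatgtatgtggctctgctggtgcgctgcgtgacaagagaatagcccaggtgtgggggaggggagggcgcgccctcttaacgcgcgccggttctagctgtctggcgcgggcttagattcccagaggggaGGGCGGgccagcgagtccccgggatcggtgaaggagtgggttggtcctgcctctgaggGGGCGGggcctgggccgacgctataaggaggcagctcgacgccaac
Gadd45a: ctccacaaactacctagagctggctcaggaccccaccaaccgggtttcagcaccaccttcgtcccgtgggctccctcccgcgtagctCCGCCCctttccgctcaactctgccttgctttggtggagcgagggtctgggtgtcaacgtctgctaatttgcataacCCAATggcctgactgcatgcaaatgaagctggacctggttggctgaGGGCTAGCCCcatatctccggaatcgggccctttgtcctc
Btg2: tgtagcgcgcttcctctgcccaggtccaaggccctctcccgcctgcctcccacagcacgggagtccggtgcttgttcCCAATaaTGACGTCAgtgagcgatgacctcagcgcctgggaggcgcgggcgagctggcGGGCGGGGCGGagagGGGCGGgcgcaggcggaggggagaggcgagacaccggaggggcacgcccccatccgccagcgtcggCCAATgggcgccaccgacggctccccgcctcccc
The motifs were the p53 half-site, the AP-1 site TGANTCA, the cyclic AMP response element (CRE) TGACGTCA, the C/EBP-ATF response element (CARE) TGATGNAA, the GC box GGGCGG, the TATA box TATAAA and the CCAAT box CCAAT, each on both strands. The search window was 250 bases before and 50 bases after each start site.

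A p53 half-site is the 10-base unit that one pair of p53 molecules binds, and a full site has a second one close by. The stretch before the upstream start of Cdkn1a held 2 half-sites, at bases -73 to -64 and -51 to -42 from the start. The bases tgacatgttc, which directly follow the second, differ from the half-site pattern at their first base and were not marked. Which of these stretches form a full site was not tested. Before its downstream start there was no half-site and there were 2 GC boxes. Gadd45a held 1 half-site, at bases -40 to -31, with a GC box and a CCAAT box farther upstream. Btg2 held no half-site but a CRE at bases -166 to -159, a CCAAT box at bases -173 to -169 just before it, a second CCAAT box nearer the start, and 3 GC boxes, of which the first 2 share 1 base. The 10 genes had 11 windows, and 5 of these windows held a half-site (those of Ccng1, Gadd45a, Mdm2, Trp53 and the upstream start of Cdkn1a), while 8.36% of all 32851 RefSeq promoter windows of the same length had one. A CRE was found in 2 of the 11 (Btg2 and Plk2) and in 1.79% of all windows, a CARE in 1 (Gadd45g) and in 3.97%, and an AP-1 site in 0 and in 7.81%. GC boxes were found in 7 of the 11 and in 35.7% of all windows, CCAAT boxes in 7 and in 37.4%, and TATA boxes in 3 and in 13.6%. A half-site was thus present in 2 of the 3 genes that rose and in 3 of the 7 others. Such matches describe letters only, and sites farther away were not searched.

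Levels are given in RPKM, the exon reads per kilobase of exon, scaled to all reads on genes, which allows genes of different length to be set side by side. In the sham retinas Ccng1 had the highest level, at 28.9 ± 3.19 RPKM (SD, n = 3), followed by Btg2, Gadd45a, Mdm2, Plk2, Gadd45g, Trp53, Gadd45b and Phlda3, and Cdkn1a had the lowest, at 1.41 ± 0.209 RPKM. Neighbours in this order whose sham samples overlapped were Gadd45a with Mdm2, Plk2 with Gadd45g, and Trp53 with Gadd45b. After ONC the mean of Cdkn1a, 5.69 ± 0.754 RPKM (SD, n = 3), lay between those of Trp53 and Gadd45b, with samples that overlapped those of both, and the order of the other 9 genes by their means was the same as in sham.

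**Figure D1:**
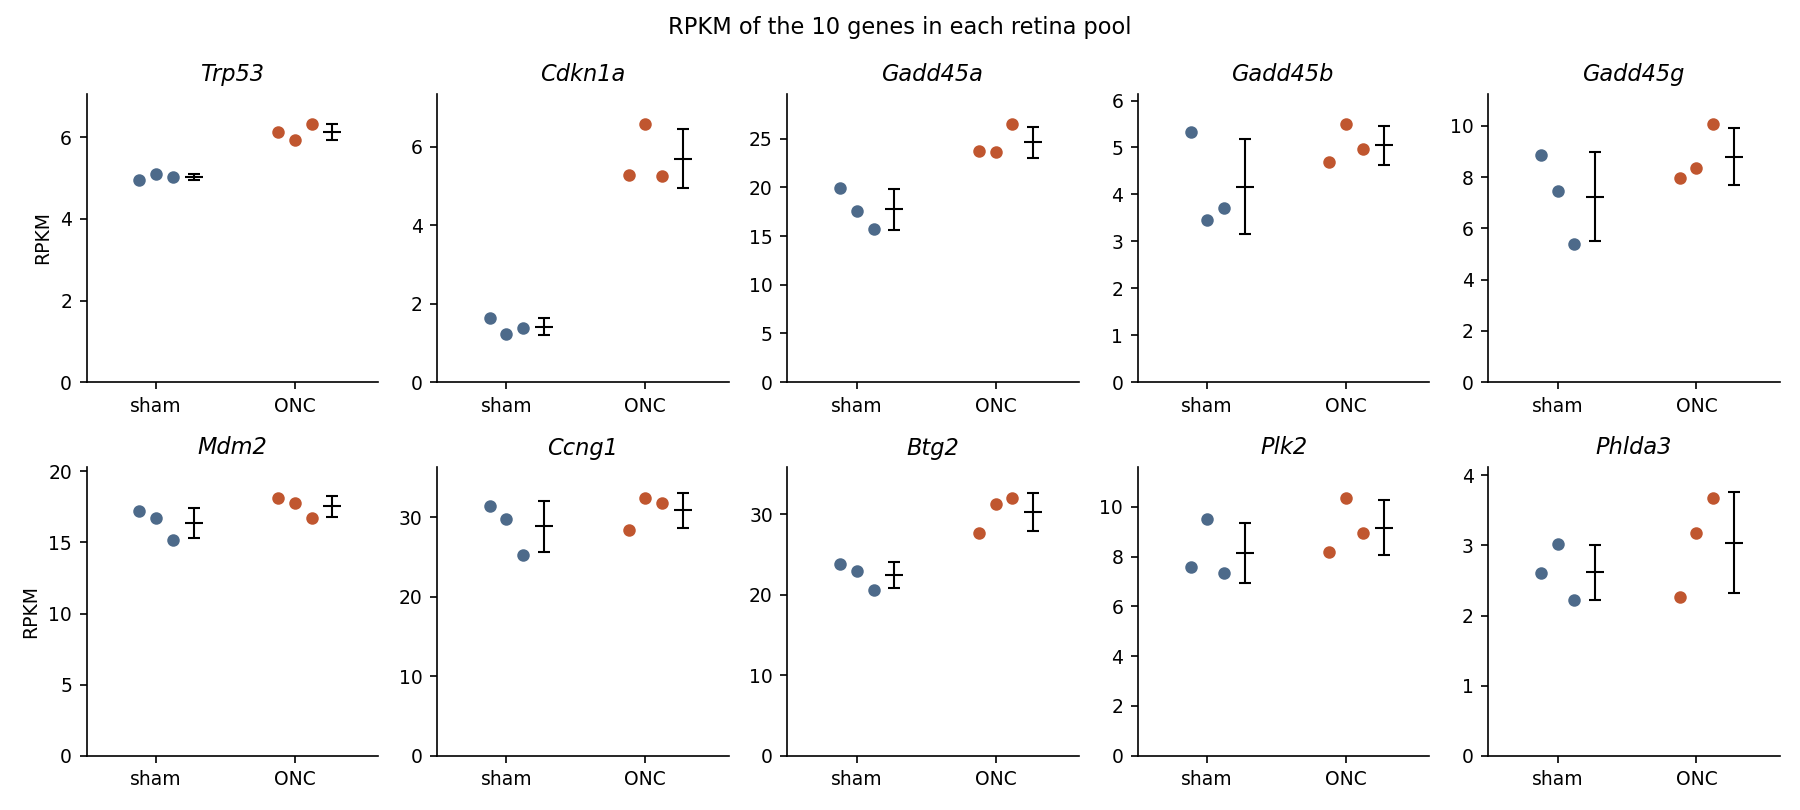
RPKM of each of the 10 genes (y axis from 0, a separate scale for each gene) in the 3 sham and the 3 ONC samples, 1 point per pool of 6 retinas, with the mean and SD beside them. For Cdkn1a the ONC points lie between 5.25 and 6.57 and the sham points between 1.22 and 1.63; the groups of Trp53, Gadd45a and Btg2 are also apart, and those of the other 6 genes overlap.

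Cdkn1a lies on chromosome 17 of GRCm38, from 29090986 to 29100722. Its RPKM was 1.63, 1.22 and 1.39 in sham pools 1, 2 and 3, and after ONC it was 5.27, 6.57 and 5.25. Every ONC sample was more than 3 times as high as every sham sample. The exon reads behind these values numbered 76, 59 and 69 in sham and 270, 331 and 276 in ONC, all of them uniquely mapped. The log2 fold change was 1.89 (standard error, SE, 0.18, adjusted p = 1.47e-06, edgeR), with a 95% interval of the fold from 2.85 to 4.79. Among the 13670 genes it ranked 21st by p and 58th by the size of the rise. Reads that span a junction between exons, and so come from spliced RNA, numbered 12, 13 and 2 in sham and 33, 46 and 41 in ONC, with the groups again apart. Reads on its introns were too few for a test, at 1, 7 and 5 in sham and 10, 11 and 3 in ONC.

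Cdkn1b, which encodes p27, a relative of p21, gave a much smaller difference. Its RPKM was 29.0 ± 1.38 (SD, n = 3) in sham and 32.7 ± 1.42 in ONC, with the groups apart, and its log2 fold change of 0.05 (SE 0.06, adjusted p = 0.729, edgeR) did not pass the test. The ratio of their RPKM, as a geometric mean over samples, was 0.0484 in sham and 0.173 in ONC, a 3.57-fold difference, which was 3.40-fold with 0.1 added to each RPKM. On the log2 scale, with the 0.1 added, the ratio was -4.14, -4.46 and -4.22 in sham pools 1, 2 and 3 and -2.56, -2.37 and -2.59 in ONC pools 1, 2 and 3. The groups were apart (two-sided p = 0.1 by an exact permutation test, the lowest value possible with 3 samples against 3, and 0.45 after Benjamini-Hochberg adjustment over the 9 ratios computed). Of 6 other inhibitors of cyclin-dependent kinases, 5 were tested (Cdkn1b, Cdkn1c, Cdkn2b, Cdkn2c and Cdkn2d). In edgeR 0 of these passed the test and 0 had an unadjusted p under 0.05. Over all 13670 genes tested, 2.38% rose and 3.72% fell past the FDR, and 2286 had an unadjusted p under 0.05. Cdkn2a was not tested, since it had between 0 and 4 exon reads per sample. The kinases, cyclins and PCNA that p21 binds gave the same count, with 0 of 10 tested genes past the FDR in edgeR. Their median log2 fold change was 0.027, and 2 had an unadjusted p under 0.05. These were Cdk6, at a log2 fold change of -1.45 (adjusted p = 0.221, edgeR), and Ccna2, at 0.45 (adjusted p = 0.1185, edgeR). Cdk6 had 19 to 25 exon reads in sham and 3 to 17 in ONC. Ccnd1, the gene of cyclin D1, had a log2 fold change of -0.07 (SE 0.10).

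Among the 3 Gadd45 genes, Gadd45a passed the test and Gadd45b and Gadd45g did not. Gadd45a lies on chromosome 6, from 67035096 to 67037407. Its RPKM was 19.9, 17.6 and 15.7 in sham pools 1, 2 and 3 and 23.7, 23.7 and 26.5 in ONC pools 1, 2 and 3. The groups did not overlap in RPKM, nor in TMM-normalized CPM, the exon reads scaled by library size. Of the 10 genes, 4 had every ONC sample above every sham sample in RPKM (Cdkn1a, Gadd45a, Btg2 and Trp53), where 25.4% of all genes tested had, and the first 3 of these had it in TMM-normalized CPM, where 11.0% of all genes had. The log2 fold change was 0.35 (SE 0.10, adjusted p = 0.0531, edgeR), with a 95% interval of the fold from 1.11 to 1.48, below the fold change threshold of a DEG. The call was lost without sham pool 2 (adjusted p = 0.204), without sham pool 3 (0.221), without ONC pool 3 (0.258) and when uniquely mapped reads alone were counted (0.132), with log2 fold changes between 0.29 and 0.33. Of its exon reads, 88.4% were uniquely mapped. The gene shares 809 bases with E230016M11Rik, and since the library kit does not mark strand, reads of both genes cannot be told apart there. E230016M11Rik was assigned 0 exon reads in each of the 6 samples, while its whole span held 844 to 994 reads in sham and 779 to 1272 in ONC. Whether any of its reads were counted for Gadd45a was not tested.

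Gadd45b, on chromosome 10 from 80930091 to 80932204, stood at an RPKM of 5.33, 3.46 and 3.71 in sham pools 1, 2 and 3 and 4.68, 5.49 and 4.96 in ONC pools 1, 2 and 3. Sham pool 1 lay among the ONC values, and the groups overlapped. Gadd45g, on chromosome 13 from 51846675 to 51848475, stood at an RPKM of 8.85, 7.45 and 5.41 in sham and 7.97, 8.36 and 10.1 in ONC, and its groups overlapped in the same way. Their log2 fold changes were 0.16 (95% interval -0.25 to 0.56, adjusted p = 0.735) and 0.17 (95% interval -0.18 to 0.52, adjusted p = 0.663, edgeR). Both intervals contain the fold change found for Gadd45a. The difference between the family members was taken from the ratios within each sample. With 3 samples against 3 the exact permutation test cannot go below p = 0.1, so no ratio could pass an adjusted p under 0.1. The groups overlapped in both ratios. The log2 ratio of Gadd45a to Gadd45b was 2.26 ± 0.158 (SD, n = 3) in ONC and 2.08 ± 0.217 in sham (exact permutation test, two-sided p = 0.2, adjusted p = 0.45). For Gadd45a against Gadd45g it was 1.48 ± 0.0873 in ONC and 1.30 ± 0.191 in sham (exact permutation test, two-sided p = 0.3, adjusted p = 0.54). Gadd45a thus made up most of the Gadd45 RPKM in both groups.

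**Figure D2:**
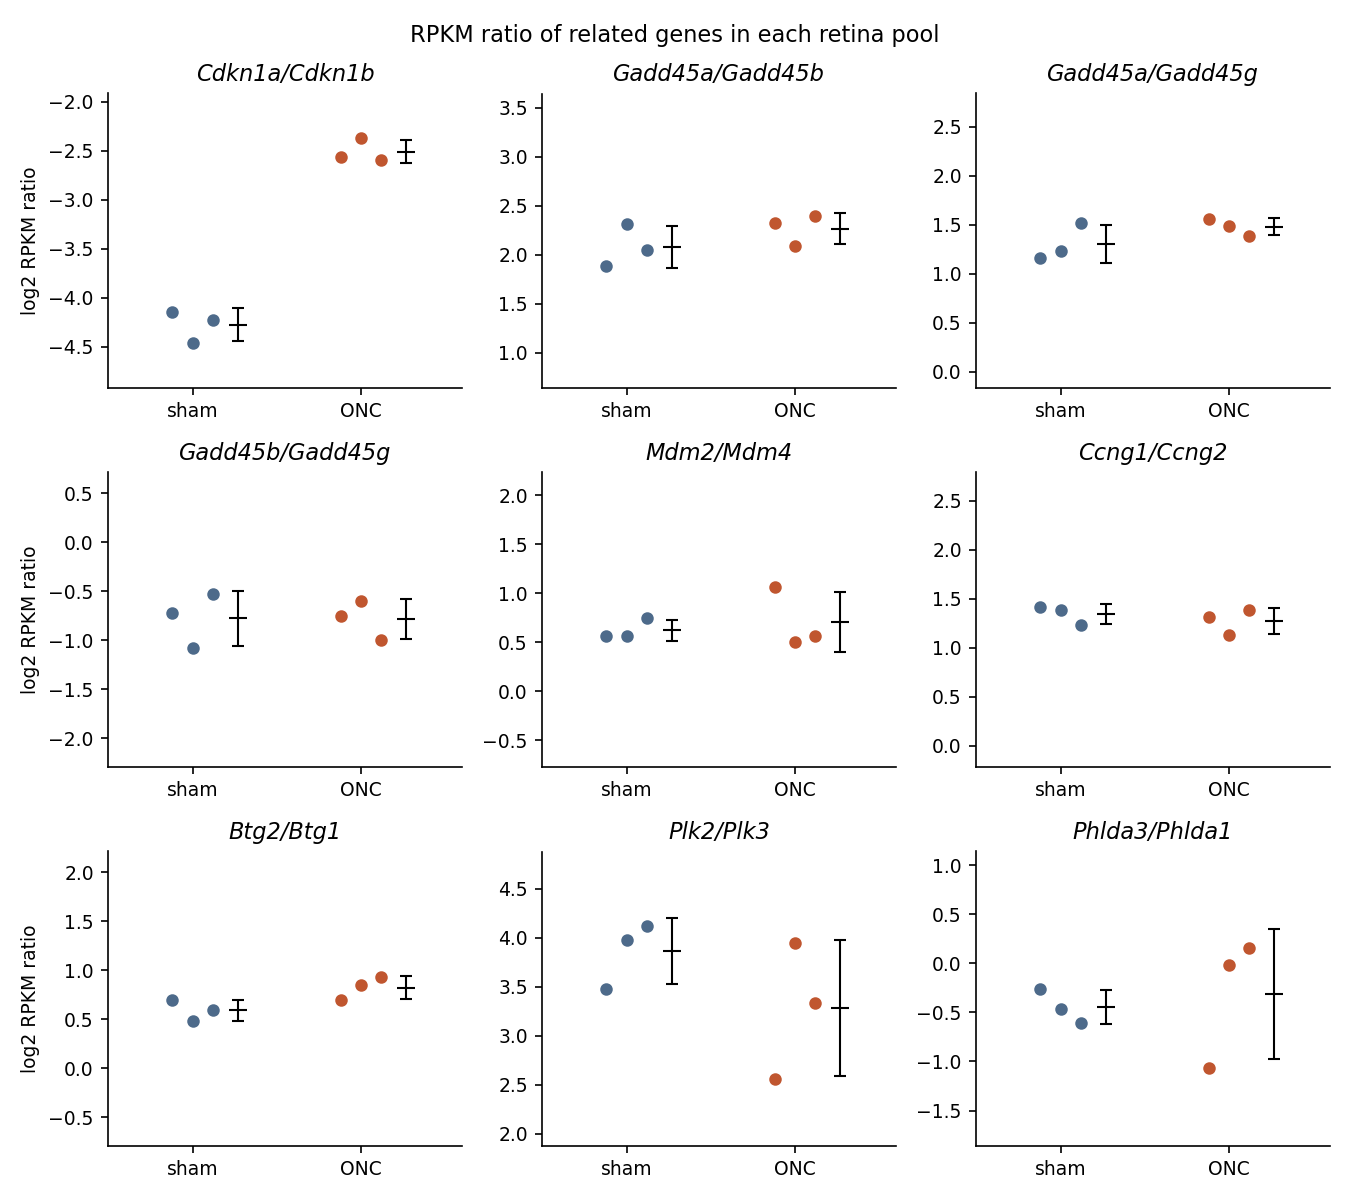
Log2 ratio of RPKM (0.1 added to each) between a gene and a relative of it, for 9 pairs, in each sham and each ONC sample, with the mean and SD beside the points; every panel spans 3 log2 units. The ratio of Cdkn1a to Cdkn1b is the one whose groups lie apart, with means of -4.27 in sham and -2.51 in ONC.

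The Gadd45 proteins act through the kinase Map3k4 and the p38 and JNK kinases below it, and through the Tet and Tdg enzymes of DNA demethylation. All 14 of these partner genes were tested, and 1 rose and 2 fell past the FDR in edgeR, beside 2.38% and 3.72% of all genes. Mapk11, the gene of p38 beta, rose by 0.44 on the log2 scale (SE 0.13, adjusted p = 0.056, edgeR), from 4.22 ± 0.0882 to 6.24 ± 0.494 RPKM (SD, n = 3). Mapk10, the gene of the neuronal kinase JNK3, fell by 0.35 on the log2 scale (SE 0.06, adjusted p = 0.00199, edgeR), and Tet3 fell by 0.217 (adjusted p = 0.0805, edgeR). Mapk11 did not pass without ONC pool 3 (adjusted p = 0.264) or without sham pool 1, 2 or 3 (0.146, 0.169 and 0.136). Tet3 did not pass in 9 of 17 alternatives, with adjusted p between 0.146 and 0.313 when ONC pool 2 or 3 or any 1 sham pool was left out, and with 0.426 under the scaling of RPKM. Mapk10 did not pass in 2 of 17, both of them limma fits to log2 RPKM. The other 11 genes did not pass, Map3k4 among them with a log2 fold change of 0.07 (SE 0.08), and the median of the list was -0.00357.

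Btg2, on chromosome 1 from 134074865 to 134079155, had 1685, 1697 and 1554 exon reads in sham pools 1, 2 and 3 and 2153, 2397 and 2559 in ONC pools 1, 2 and 3. In RPKM this was 23.8, 23.0 and 20.6 in sham and 27.6, 31.2 and 32.0 in ONC, and no sham value reached the lowest ONC value. The log2 fold change was 0.31 (SE 0.07, adjusted p = 0.00878, edgeR), with a 95% interval of the fold from 1.13 to 1.37. It passed the FDR in all 17 alternatives and the fold change threshold in 0 of them. Its relative Btg1 did not pass the test, and the log2 ratio of Btg2 to Btg1 overlapped between the groups, at 0.823 ± 0.119 (SD, n = 3) in ONC and 0.593 ± 0.108 in sham (exact permutation test, two-sided p = 0.2, adjusted p = 0.45).

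For Trp53 itself, whether the groups overlapped depended on how the samples were scaled. It lies on chromosome 11, from 69580359 to 69591873, and had 213, 228 and 230 exon reads in sham pools 1, 2 and 3 and 290, 276 and 306 in ONC pools 1, 2 and 3. In RPKM this was 4.96, 5.10 and 5.03 in sham and 6.13, 5.94 and 6.32 in ONC, and the groups did not overlap. In TMM-normalized CPM, which sets the typical gene at no change, it was 12.2, 12.5 and 13.5 in sham and 14.6, 13.5 and 14.7 in ONC, and the groups overlapped. The divisor of RPKM includes intron reads, and exons held between 70.9% and 76.6% of these reads in sham and between 78.5% and 80.4% in ONC. With that scaling the median log2 fold change of all genes was 0.131, and 76.7% of all genes lay above 0, against 52.3% with TMM. The log2 fold change of Trp53 was 0.16 (SE 0.13, adjusted p = 0.58, edgeR), with a 95% interval from -0.12 to 0.44, and it was 0.29 (adjusted p = 0.229) with the scaling of RPKM. None of the 17 alternatives brought it past the FDR.

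Mdm2, the ligase that keeps p53 low, stood at an RPKM of 17.2, 16.7 and 15.2 in sham pools 1, 2 and 3 and 18.1, 17.8 and 16.7 in ONC pools 1, 2 and 3. It lies on chromosome 10, from 117688905 to 117710716. The groups overlapped, its exon reads were many (1124 to 1389), and its log2 fold change was held within narrow limits, at -0.02 with a 95% interval from -0.17 to 0.13 (adjusted p = 0.915, edgeR). With the scaling of RPKM it was 0.10, below the median of all genes under that scaling. Ccng1, on chromosome 11 from 40748552 to 40755286, stood at an RPKM of 31.4, 29.8 and 25.3 in sham and 28.3, 32.4 and 31.8 in ONC. Its log2 fold change was -0.02 with a 95% interval from -0.16 to 0.11 (adjusted p = 0.896, edgeR), and with the scaling of RPKM it was 0.10, again below that median. For both genes the interval leaves out a change of 1.5-fold in either direction in whole retina. A change within a small minority of its cells, such as the RGCs, was not measured apart.

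Plk2, on chromosome 13 from 110395044 to 110400844, stood at an RPKM of 7.56, 9.52 and 7.33 in sham pools 1, 2 and 3 and 8.19, 10.4 and 8.93 in ONC pools 1, 2 and 3. Phlda3, on chromosome 1 from 135766085 to 135769134, stood at an RPKM of 2.61, 3.02 and 2.23 in sham and 2.26, 3.18 and 3.68 in ONC. In both genes the groups overlapped. The log2 fold change of Plk2 was 0.05 (95% interval -0.18 to 0.28, adjusted p = 0.872), and that of Phlda3, with 80 to 140 exon reads per sample, was 0.10 (95% interval -0.38 to 0.57, adjusted p = 0.877, edgeR). The ratios of Plk2 to Plk3, Phlda3 to Phlda1, Mdm2 to Mdm4 and Ccng1 to Ccng2 overlapped between the groups, as did that of Gadd45b to Gadd45g, with adjusted p between 0.45 and 1 in the exact permutation test.

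**Figure D3:**
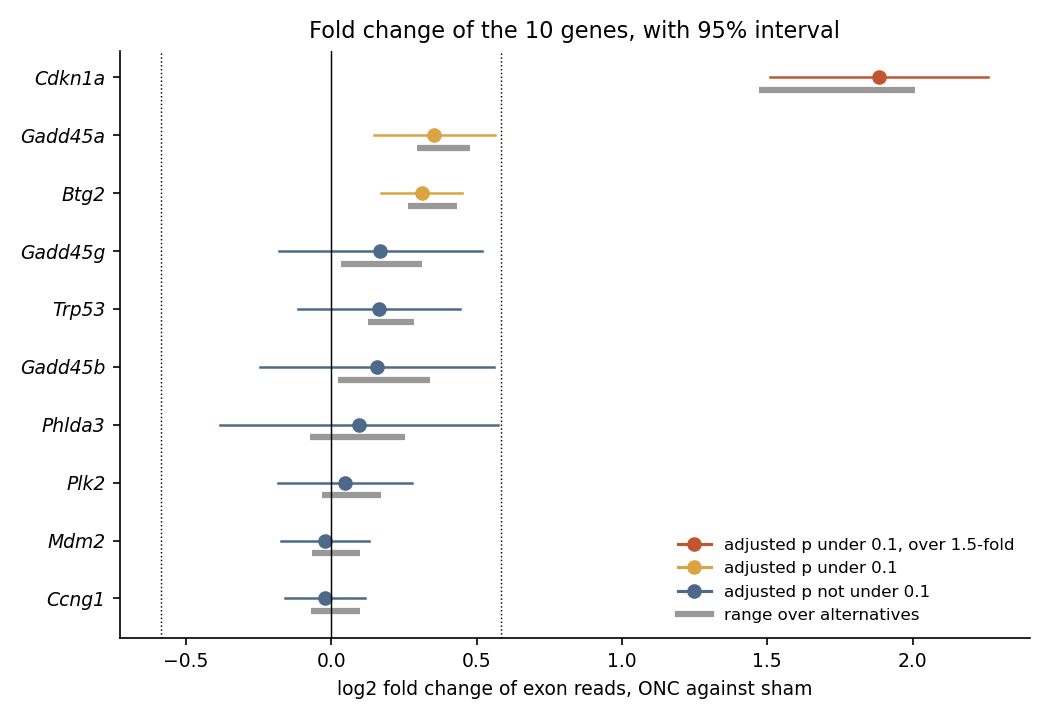
Log2 fold change of exon reads in ONC against sham for the 10 genes (points) with the 95% interval (thin lines), and the lowest and highest value over 17 other ways of processing (grey bars); dotted lines mark 1.5-fold. Cdkn1a stands at 1.89, Gadd45a at 0.35 and Btg2 at 0.31, and the intervals of the other 7 genes include 0.

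Intron reads, which come largely from RNA not yet spliced, gave a second readout in the same libraries. They were enough for a test in 4 of the 10 genes, and 0 of these 4 passed the FDR in edgeR, where 2.70% of the 13391 genes with enough intron reads did. In that test 0 of the 4 had an unadjusted p under 0.05. Trp53 had 106, 135 and 107 intron reads in sham pools 1, 2 and 3 and 124, 168 and 172 in ONC pools 1, 2 and 3. These counts overlapped, but they are not scaled to the intron reads of each library. Those numbered 5545794 to 7131984 in sham and 4866867 to 5582782 in ONC. The log2 fold change of Trp53, with scaling, was 0.44 (SE 0.21, adjusted p = 0.308). The values for Gadd45a, Mdm2 and Ccng1 were 0.51 (SE 0.51), -0.12 (SE 0.23) and -0.31 (SE 0.51). The exon change of these 4 genes was also tested against their intron change, and 0 of the 4 differed in edgeR (0 at an unadjusted p under 0.05), where 0.0352% of 11365 genes did. In the other 6 genes, Cdkn1a and Btg2 among them, the intron reads were too few for the filter used. With at least 10 intron reads on average required instead, 5 of the 10 genes were tested, Btg2 then among them. In edgeR, 0 of these 5 passed the FDR in either test.

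Of 33 other genes known as p53 targets, 28 were tested, and 2 of them rose, 0 fell and 26 did not pass, beside 2.38% of all genes that rose and 3.72% that fell. Both that rose were DEGs, where 0.827% of all genes tested were higher DEGs. Bbc3, which encodes the cell death protein PUMA, had 43, 31 and 50 exon reads in sham pools 1, 2 and 3 and 99, 71 and 116 in ONC pools 1, 2 and 3, a log2 fold change of 0.98 (SE 0.30, adjusted p = 0.0756, edgeR). Sesn2, a stress gene that ATF4 also controls, had 255, 297 and 246 exon reads in sham and 492, 443 and 483 in ONC, a log2 fold change of 0.62 (SE 0.12, adjusted p = 0.00417, edgeR). In both genes the groups did not overlap. The call of Bbc3 was lost without ONC pool 3 (adjusted p = 0.321) without sham pool 1, 2 or 3 (0.141, 0.286 and 0.114) and with total gene reads (0.133). Sesn2 passed the FDR in all 17 alternatives and was a DEG in 15, with log2 fold changes just under the fold threshold without ONC pool 1 (0.57) and with total gene reads (0.58). Bax, the death effector that p53 activates in many cells, had a log2 fold change of 0.0024 with a 95% interval from -0.27 to 0.27. The median of the 28 genes was 0.0467. The 5 targets not tested, Pmaip1, Dram1, Eda2r, Gtse1 and Ckap2, had at most 28 exon reads in any sample. Of these, Pmaip1, which encodes the cell death protein Noxa, had 5, 0 and 1 exon reads in sham and 13, 18 and 14 in ONC. Its groups were apart, and the groups of the other 4 overlapped. The mean RPKM of Pmaip1 was 0.032 in sham and 0.223 in ONC, under the filter of 0.3. How many genes under that filter had their groups apart was not computed.

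Of 19 regulators of p53, 16 were tested, and 1 rose, 1 fell and 14 did not pass, beside 2.38% of all genes that rose and 3.72% that fell. Rchy1, the gene of the p53 ubiquitin ligase Pirh2, rose from 13.3 ± 1.70 to 18.6 ± 1.62 RPKM (SD, n = 3), with a log2 fold change of 0.37 (SE 0.09, adjusted p = 0.0307, edgeR). Hipk2, the gene of a kinase that phosphorylates p53, fell from 9.59 ± 0.555 to 7.86 ± 1.14 RPKM (SD, n = 3), with a log2 fold change of -0.41 (SE 0.10, adjusted p = 0.0258, edgeR). Rchy1 did not pass without ONC pool 2 (adjusted p = 0.153) or sham pool 3 (0.188). Hipk2 did not pass in 6 of 17 alternatives, with adjusted p between 0.128 and 0.155, among them those without ONC pool 2 or 3 and without sham pool 2 or 3. Mdm4, the partner of Mdm2, had a log2 fold change of -0.10 (SE 0.10), and the median of the 16 genes was -0.0632. Trp63 and Trp73, the relatives of Trp53, were not tested, with at most 19 and 7 exon reads in a sample.

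**Figure D4:**
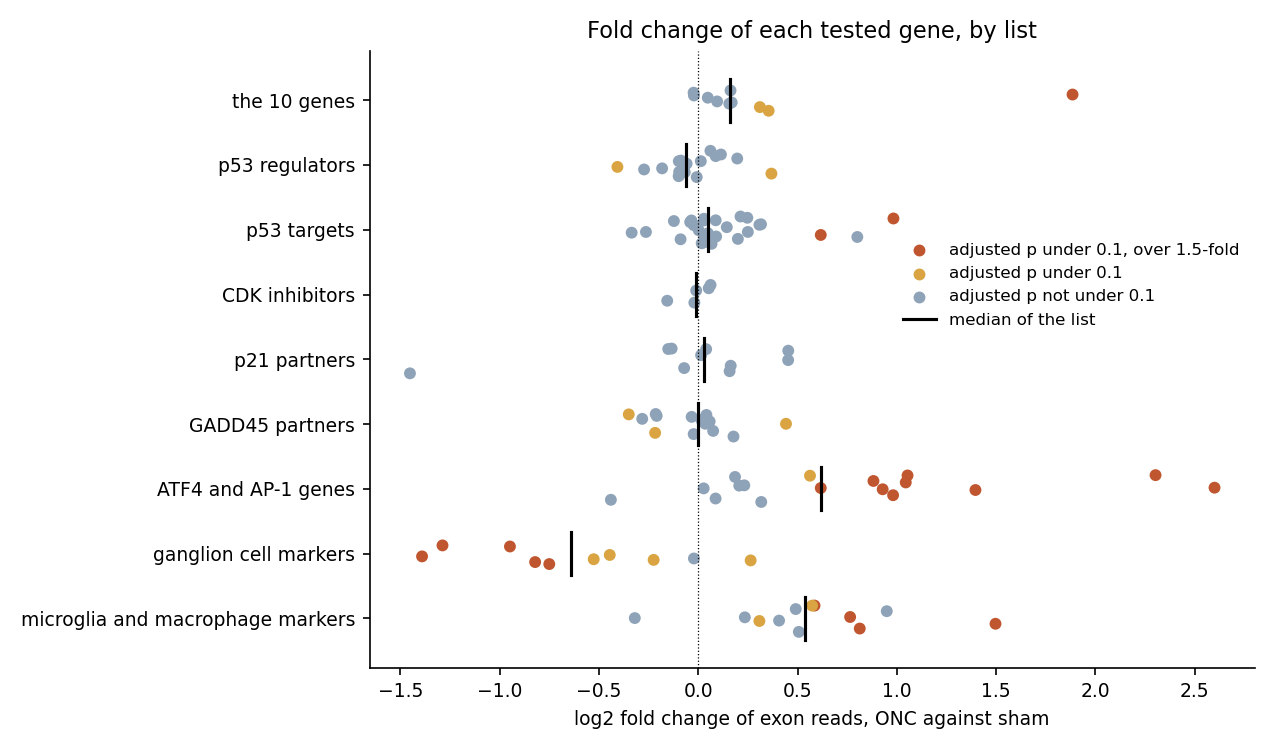
Log2 fold change of exon reads in ONC against sham for every tested gene of 9 lists (1 point per gene, spread vertically for visibility), coloured by the test result, with the median of each list as a black bar. Cdkn1a is the point of the 10 genes at 1.89. The medians of the p53 regulators, p53 targets, CDK inhibitors, p21 partners and GADD45 partners lie between -0.0632 and 0.0467, that of the ATF4 and AP-1 genes at 0.617. The lists were chosen with earlier results of these data known and were not tested against each other.

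Whether ATF4 had a part in the rise of Cdkn1a and Gadd45a was not tested. A list of genes of the ATF4 and AP-1 response is described in the same way as the other lists. Of its 17 tested genes, 10 rose, 9 of them as DEGs, 0 fell and 7 did not pass, with a median log2 fold change of 0.617. Over all genes tested, 2.38% rose and 0.827% were higher DEGs. The list was chosen with earlier results of these data known, among them the reported rises of Atf3, Chac1, Trib3 and Egr1. Its count and median are thus a description and no independent support. The largest values were 2.60 for Chac1, a glutathione-degrading enzyme, 2.30 for the transcription factor Atf3, 1.40 for Trib3 and 1.05 for the early gene Egr1 (adjusted p between 1.67e-08 and 0.00122, edgeR). Sesn2 stands in this list as well as among the p53 targets. The lists were not tested against each other. Of 18 relatives of the 10 genes, such as Mdm4, Ccng2, Btg1 and Phlda1, 14 were tested, and 0 passed the FDR in edgeR. Of these 14, 1 had an unadjusted p under 0.05, and their median log2 fold change was 0.0411. Of all 13670 genes tested, 2.38% rose and 3.72% fell past the FDR, and 2286 had an unadjusted p under 0.05.

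The genes whose pattern over the 6 samples was nearest to that of Cdkn1a were Adcyap1, the gene of the neuropeptide PACAP, Phgdh, the first enzyme of serine synthesis, and Gm13889, out of 11975 candidates. Nearness was the Euclidean distance between log2 TMM-normalized CPM values, each taken relative to the gene's own sham mean, and the distances were 0.416, 0.46 and 0.484. Their log2 fold changes were 1.77, 1.91 and 1.75. For Gadd45a the nearest were Ifrd1, B3galnt2 and H2-T22, at distances of 0.134, 0.147 and 0.159. Of these, Ifrd1 passed the test at a log2 fold change of 0.35 (adjusted p = 0.00534, edgeR), whereas B3galnt2 and H2-T22, at 0.34 and 0.35, did not (adjusted p = 0.173 and 0.418). The genes were picked by likeness, and their values are a description.

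Markers of other cells moved between the same samples. Of all 13670 genes tested, 2.38% rose and 3.72% fell past the FDR, and 2286 had an unadjusted p under 0.05. The libraries held 17343945 to 18349331 exon reads in sham and 20019818 to 20358008 in ONC. Of 10 RGC markers, 8 fell, 1 rose (Slc17a6) and Isl1 did not pass, and their summed RPKM was 453 to 471 in sham and 340 to 357 in ONC, with log2 fold changes of -1.39 for Pou4f2, -1.29 for Nefh, -0.95 for Sncg and -0.82 for Rbpms. Of 12 microglia and macrophage markers, 6 rose, 0 fell and 6 did not pass, and their summed RPKM was 34.0 to 37.2 in sham and 52.1 to 59.5 in ONC, with folds of 2.82 for Cd68, whose groups overlapped, 1.76 for C1qb and 1.70 for Itgam. C1qb passed in all 17 alternatives. Cd68 did not pass in 5 of them, among them those without ONC pool 2 or 3 or sham pool 2 or 3 (adjusted p between 0.257 and 0.414). Itgam did not pass in 6, among them those without any 1 ONC pool or sham pool 2 or 3 (0.109 to 0.307), and C1qa did not pass in 6, among them those without ONC pool 2 or 3 or sham pool 1 or 2 (0.189 to 0.326). All markers of both lists had reads in every sample. Of 9 photoreceptor markers 2 rose, Sag by 0.39 and Pde6b by 0.18 on the log2 scale, and 0 fell. Sag passed in all 17 alternatives and Pde6b in 11, with adjusted p between 0.106 and 0.163 without ONC pool 2 or 3 or any 1 sham pool. Among 10 Muller glia and astrocyte, 8 endothelial and mural and 6 pigment epithelium markers, 0 passed the FDR in edgeR, with 3, 0 and 0 at an unadjusted p under 0.05. Of 10 markers of dividing cells, 7 had too few reads to be tested. Among these 7, the groups of Mki67 and Cdc20 were apart in RPKM and those of the others overlapped. Mki67 had 10, 1 and 2 exon reads in sham and 13, 22 and 23 in ONC. Cdc20 had 6, 0 and 1 in sham and 13, 11 and 12 in ONC, and Birc5 had 14, 9 and 8 in sham and 3, 4 and 15 in ONC. These few reads are not scaled to library size. In edgeR 0 of the 3 tested markers passed, with 0 at an unadjusted p under 0.05. The part of RGCs, microglia and other cells in the rise of Cdkn1a, Gadd45a and Btg2 was not tested. No batch within the groups was given.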

How the data were processed

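The authors sequenced TruSeq RNA libraries as read pairs on a HiSeq2000 and mapped them with CLC Genomics Workbench 6.0.1. The deposited tables hold, per gene, unnormalized read counts on exons and on whole genes. They also hold RPKM values, which the authors computed against all reads on genes. The methods name mm9, but the tables' positions match RefSeq on GRCm38, with 6 of the 10 genes at the same start and end and the others within 42 bases.

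The 13670 genes whose mean RPKM exceeded 0.3 in sham, ONC or both were tested. Total exon read counts were compared with edgeR 4.0.16 (TMM, glmQLFit, glmQLFTest, Benjamini-Hochberg adjustment) in R 4.3.3, where the study's methods used a per-gene test on RPKM. Intron reads are whole-gene minus exon reads, kept by filterByExpr. Ratios were compared with exact permutation tests in scipy 1.17.1. The fits were tested on simulated data. Alternatives were DESeq2 1.42.0, limma 3.58.1 on log2(RPKM + 0.1) and log2(RPKM + 1), other scalings, filters and read counts, the replicate block and leaving out each sample.

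The 10 genes and the lists were chosen with earlier results of these data known. From each list, its first gene and up to 4 genes past the FDR with the largest change were to be named, with both genes of each ratio and the nearest genes. Other names (Slc17a6, Isl1, Cdk6, Ccna2, the untested genes and the tested CDK inhibitors) complete small counts. The list names Cop1, Pidd1 and Tigar are Rfwd2, Lrdd and 9630033F20Rik in the tables. The p-values of the fits set the difference between groups against the spread between pools, and not between single animals. Those of the permutation tests come from reassigning the pools to the groups.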

Additional observations from a re-analysis of the deposited data

How the results depend on the processing

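Of 170 results for the 10 genes under 17 alternatives, 151 kept their direction and their side of the threshold. Cdkn1a was a DEG in all 17, with log2 fold changes between 1.47 and 2.01, and Btg2 passed the FDR in all 17. Gadd45a passed in 13, so that 2 or 3 of the 10 genes passed, and the number of DEGs among them was 1 throughout. Over all genes there were 227 DEGs, 113 higher and 114 lower. There were 350 with all reads on genes as library size (263 higher, 87 lower), 342 with total gene reads (114 higher, 228 lower), 282 with limma on log2(RPKM + 0.1) (217 higher, 65 lower), 165 with limma on log2(RPKM + 1) (126 higher, 39 lower), and 153 to 353 with 1 sample left out, the lowest without sham pool 2 and the highest without ONC pool 1. Past the FDR were 2 of the other p53 targets, 1 with total gene reads, and 1 to 4 with 1 sample left out, with 4 without ONC pool 1 and 1 without ONC pool 3.

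Log2 fold changes near 0 changed sign. Mdm2 stood at 0.0987 with all reads on genes, 0.0992 and 0.0942 with limma at pseudocounts of 0.1 and 1, 0.0025 without TMM and -0.0653 to 0.0069 with 1 sample left out. Ccng1 stood at 0.0964, 0.0994, 0.0964 and 0.0023 in the same order, at 0.0171 with total gene reads and at -0.0705 to 0.0172 with 1 sample left out. With 1 sample left out, Plk2 ranged from -0.0334 to 0.152 and Phlda3 from -0.0735 to 0.254, and the log2 ratio differences from -0.159 to 0.118 for Gadd45b to Gadd45g, from -0.0899 to 0.188 for Mdm2 to Mdm4 and from -0.102 to 0.513 for Phlda3 to Phlda1. The cause was not tested. Replicate numbers did not pair the samples (correlations of -0.0414, -0.0147 and 0.0139); with the replicate block there were 222 DEGs and 3 of the 10 genes passed the FDR. A DESeq2 test of intron reads was chosen after seeing the data. In 6 of the 10 genes the intron reads were too few for the main test. With at least 10 intron reads on average required instead, 5 of the 10 genes were tested and 0 passed the FDR.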
